A study of Mus musculus with 3 samples.

Results

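Slpi, Chil3, Hp, Lyz2, Fn1, F13a1, Thbs1, Vcan, Mgst1 and Gda are 10 genes that led the monocyte clusters of tumour-infiltrating immune cells in mouse melanoma. They were taken by symbol from the 55401 genes listed in the count matrices. Because they were chosen by their high counts in the monocyte clusters of these same libraries, their levels in one cell type against another are given as a description, with no test. The products of 8 of the 10 are secreted or released by cells. Mgst1 and Gda encode enzymes that stay inside the cell, so the name "secretory" does not cover them.

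The study sequenced RNA from single CD45+ cells, the immune cells, of melanomas grown under the skin of mice. Mice of 4, 12 and 20 months of age, 7 of each age, were injected with 500000 cells of YUMM1.7, a mouse melanoma line, and all tumours were taken 18 days later. Each age is 1 library. Pooling of the 7 mice, their strain and their sex are not given in the sources used here. All 3 groups carried the same tumour line and no other treatment is named, so 4 months served as the reference age. Age and library cannot be told apart, no value has a replicate, and every interval below is a 95% interval that covers counting error only.

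Classical monocytes leave the bone marrow carrying Ly6C, enter inflamed tissue and tumours, and there either stay monocytes or become macrophages, many of which make complement C1q. Nonclassical monocytes derive largely from classical ones and patrol the vessel wall. Monocytes carry secreted defence proteins, which their precursors share with neutrophils, and they also deposit provisional matrix and clotting proteins at sites of injury. Lymphocytes make few of these products, so their counts served here as the background that free RNA leaves in any cell.

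Among the products with a part in defence, Slpi encodes an inhibitor of neutrophil elastase and other serine proteases, and Lyz2 encodes lysozyme, which cuts bacterial cell walls. Chil3 encodes Ym1, a chitinase-like protein without chitinase activity. Hp encodes haptoglobin, the plasma protein that binds free haemoglobin. Fn1 encodes fibronectin, a main protein of provisional matrix, and Vcan encodes versican, a large proteoglycan of loose matrix. Thbs1 encodes thrombospondin-1, a matricellular protein that binds CD36 and CD47 and can activate latent TGF-beta. F13a1 encodes the catalytic subunit of factor XIII, which crosslinks fibrin and fibronectin. Mgst1 encodes a glutathione transferase of the membrane, and Gda encodes guanine deaminase, a purine-breakdown enzyme.

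The stretch of 250 bases before the RefSeq start was read for 7 of the 10 genes on GRCm38.p6, with 9 entries for them. C/EBP factors drive many genes of the myeloid lineage, and the letters TTGCNNAA, searched on both strands, were present in 3 of the 7. The same letters were present in 9.56% of 32851 windows of the same length before RefSeq starts. This share and the PU.1 share below are per window, while the 7 genes are counted once each over their 9 entries. The windows of Slpi and Gda are shown because they hold a match, written along the gene's own strand, 5′ to 3′, with the match in capitals. The matches lie on the opposite strand to the gene, so the capitals show the reverse complement of the searched letters. The Slpi window is chr2:164356508-164356757, minus strand, and its match begins 241 bases before the start.

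Slpi: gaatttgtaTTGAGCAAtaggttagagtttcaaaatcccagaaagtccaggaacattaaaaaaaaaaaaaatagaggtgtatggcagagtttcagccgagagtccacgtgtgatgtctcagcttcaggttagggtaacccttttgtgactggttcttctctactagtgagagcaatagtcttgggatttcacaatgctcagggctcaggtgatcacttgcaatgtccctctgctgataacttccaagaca

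Gda: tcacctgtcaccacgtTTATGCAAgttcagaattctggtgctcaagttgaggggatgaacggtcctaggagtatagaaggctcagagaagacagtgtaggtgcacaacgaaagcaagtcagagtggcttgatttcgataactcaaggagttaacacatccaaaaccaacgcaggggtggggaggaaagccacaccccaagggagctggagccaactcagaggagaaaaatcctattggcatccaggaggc

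The Gda window is chr19:21472662-21472911, minus strand, with the match 234 bases before the start. The third window is that of Mgst1, with the match 83 bases before the start, and it is not printed because an exon of another Mgst1 transcript covers most of it. The printed Slpi and Gda windows also lie inside the span that GENCODE M21 gives these genes, since it lists transcripts with starts further upstream. The PU.1 letters GAGGAA, also searched on both strands, were present in windows of F13a1, Mgst1 and Gda, or 3 of the 7, against 23.3% of all windows. The Mgst1 window with the PU.1 letters belongs to its second entry. A match of letters is a description of the sequence and not a binding site.

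The 10 genes lie on 8 chromosomes. On GRCm38 with the GENCODE M21 annotation, Slpi is at chr2:164354070-164389095 and Thbs1, on the other strand of the same chromosome, at chr2:118111876-118127133. Fn1 is at chr1:71585520-71653200, Chil3 at chr3:106147554-106167564 and Lyz2 at chr10:117277331-117282321. F13a1 is at chr13:36867178-37050244 and Vcan, also on chromosome 13, at chr13:89655312-89742509. Hp is at chr8:109575128-109579172, Mgst1 at chr6:138140316-138156755 and Gda at chr19:21391307-21473445. Counting reads from close copies can split them: Lyz1 lies 5475 bases from Lyz2 and Chil4 33925 bases from Chil3, so the levels of Lyz2 and Chil3 are uncertain to that extent. Exons of Fn1, F13a1 and Thbs1 are overlapped by genes on the opposite strand, and whether counting used strand is not given in the sources used here.

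In order of age, values below are for 4, 12 and 20 months. There were 14393, 14653 and 14684 cells, of which 13528, 13774 and 13803 remained after doublet removal, and total counts were 110371225, 127850782 and 119873564. Between 2 and 4 cell barcodes were shared by each pair of libraries. Cells were clustered without the 10 genes and named from marker lists. Classical monocyte-like cells numbered 2309, 1283 and 1397, with median counts per cell of 7272, 7984 and 7379. C1q macrophage-like cells numbered 1506, 1780 and 2378, nonclassical monocyte-like cells 87, 40 and 38, and T-like cells 5080, 6683 and 6179. Further monocyte or macrophage cells stayed without a name, mainly sub-cluster 4 with 4.95%, 3.21% and 3.90% of retained cells and sub-cluster 5 with 5.41%, 4.86% and 5.47%. In the classical class Ly6c2 stood at 4822, 4536 and 3936 CPM (counts of a gene per 1000000 counts of the class). Classical monocytes carry Ly6c2, but it was also at 4137, 3621 and 2652 CPM in the C1q class. The summed classical markers were at 15120, 13476 and 13849 CPM in classical and 7859, 6576 and 5511 CPM in C1q cells. In T-like cells they were at 7383, 7562 and 6679 CPM. C1qa stood at 213, 258 and 362 CPM in the classical class against 3857 CPM in the C1q class at 4 months. The label of cell type reads melanoma although the cells were sorted for CD45, and summed melanocyte markers were at 4.6, 5.0 and 5.6 CPM in classical monocytes.

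Of the 5 classes compared, classical monocyte-like cells had the highest level of every gene but Gda. The levels are in CPM of the class's summed counts, a scale without length correction, which 3′ libraries as here do not need. Lyz2 stood far above the rest, at 20192 CPM (20125 to 20259), 18230 and 18280. Chil3 followed at 851, 806 and 893 CPM. Fn1 reached 488, 496 and 593 CPM, and Hp 403.5, 451 and 461 CPM. Slpi was at 347, 283 and 260 CPM, F13a1 at 308, 292 and 274 CPM, and Thbs1 at 284, 328 and 482 CPM. Mgst1 (265, 254 and 245 CPM), Gda (253, 243 and 260 CPM) and Vcan (165, 156 and 178 CPM) were the lowest. The order of the levels moved with age in its lower part: Thbs1 was the seventh gene at 4 months and the fourth, between Fn1 and Hp, at 20 months.

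**Figure D1:**
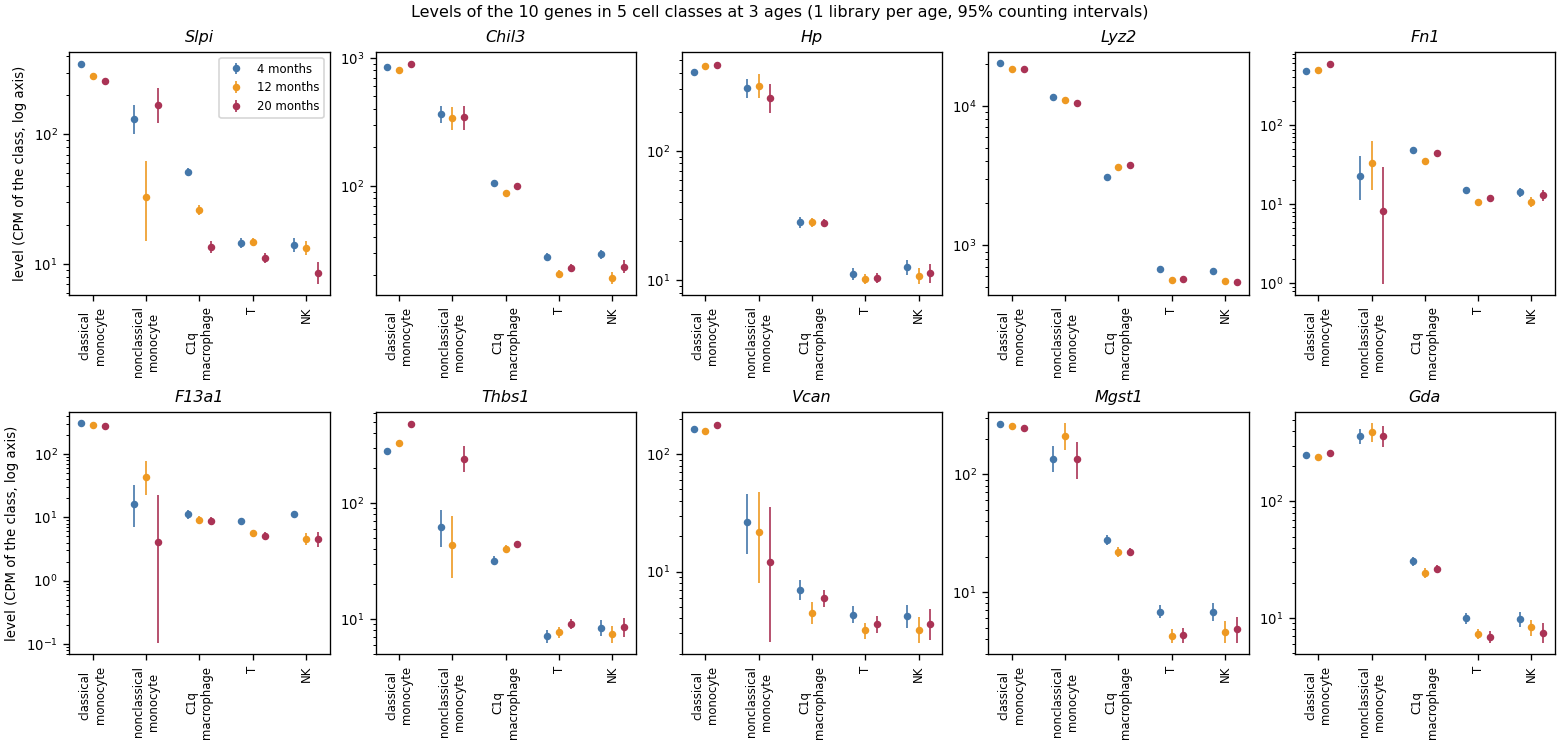
Level of each of the 10 genes in CPM (log axis) in classical monocyte-like, nonclassical monocyte-like, C1q macrophage-like, T-like and NK-like cells of the 3 libraries, with bars for the 95% counting interval. Every gene is 1 panel; the classical class is highest in all panels but Gda, where nonclassical monocyte-like cells are higher.

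In C1q macrophage-like cells the same genes were lower by 4.88-fold to 35.1-fold, and the gap was not even between them. All 10 were more than 2-fold higher in the classical class in each library, where 10.7%, 8.96% and 10.2% of all genes tested were (5.62%, 3.69% and 4.52% were lower), and since this contrast chose the genes nothing is read from that count. The gap was widest for Vcan, 23.6-fold, 35.1-fold and 29.8-fold, and for F13a1, 27.3-fold, 31.9-fold and 31.2-fold. It was narrowest for Lyz2, 6.53-fold, 4.99-fold and 4.88-fold. Lyz2 remained an abundant product of C1q macrophages at 3090, 3651 and 3748 CPM, while Vcan was at 6.99, 4.45 and 5.96 CPM there. In between were Chil3 at 106, 87.8 and 99.0 CPM, Fn1 at 47.7, 34.9 and 43.6 CPM, and Hp at 28.1, 28.0 and 27.8 CPM.

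The T-like cells set a floor under these values. There every gene stood at 2.50% to 4.22% of its classical level at 4 months, a range of 1.69-fold between the lowest and the highest ratio although the levels themselves ran from 4.30 CPM for Vcan to 679 CPM for Lyz2. The ranges were 1.66% to 5.22% at 12 months and 1.76% to 4.32% at 20 months, and Slpi had the highest ratio in each library. In NK-like cells, the other lymphocyte class, the ratios ran from 2.56% to 4.05%, 1.57% to 4.71% and 1.65% to 3.30%. Against this floor, F13a1 in C1q macrophages was 1.28-fold, 1.63-fold and 1.71-fold the T-like level and Vcan 1.62-fold, 1.41-fold and 1.68-fold, so both were close to background there. Lyz2 in C1q macrophages was 4.55-fold, 6.54-fold and 6.58-fold the T-like level, Chil3 3.79-fold, 4.27-fold and 4.30-fold, and Thbs1 4.50-fold, 5.29-fold and 4.91-fold.

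**Figure D2:**
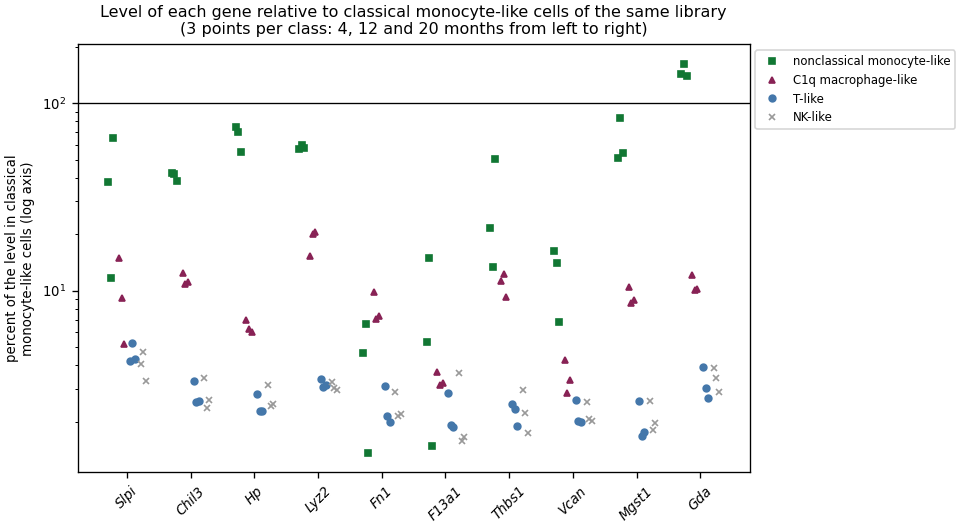
Level of each gene in nonclassical monocyte-like, C1q macrophage-like, T-like and NK-like cells as a percent of its level in classical monocyte-like cells of the same library (log axis). The T-like and NK-like points lie in a narrow band from 1.57% to 5.22%, while the nonclassical points spread from 1.36% for Fn1 at 20 months to 162% for Gda at 12 months.

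The share of cells with a count was compared after thinning each cell to 3000 counts, a depth that every cell reached. In classical monocytes Lyz2 was seen in 99.9%, 99.8% and 99.8% of cells, but it was also seen in 87.4%, 81.9% and 82.3% of T-like cells, so a count of Lyz2 does not mark a monocyte in these libraries. Chil3 was seen in 56.2%, 54.3% and 60.5% of classical monocytes and in 8.1%, 6.1% and 6.8% of T-like cells. Thbs1 was seen in 31.8%, 33.2% and 42.8% of classical monocytes, or 43.1%, 46.4% and 55.5% before thinning. Slpi was seen in 35.6%, 35.5% and 31.9%, or 52.8%, 52.9% and 49.7% before thinning. The median counts behind the unthinned shares were 7272, 7984 and 7379 per classical monocyte and 5324, 6268 and 5897 per T-like cell.

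Slpi and Thbs1 were concentrated in few cells and Lyz2 was spread over nearly all. At 3000 counts per cell the 10% of classical monocytes with the most counts of a gene held 65.6%, 60.5% and 65.1% for Slpi, and 63.8%, 61.5% and 56.1% for Thbs1. For Chil3 the shares were 48.4%, 45.3% and 43.9%, and for Lyz2 24.5%, 23.8% and 23.6%. Just 10 cells held 13.3%, 12.3% and 16.8% of the Slpi counts before thinning. From cell to cell, after the same thinning, the median correlation over the 45 pairs was 0.18, 0.22 and 0.19. The pair of Hp and Lyz2 was the highest at 0.53, 0.49 and 0.48. At 4 months the thinned means ran from 0.51 counts per cell for Vcan to 2.75 for Chil3, with Lyz2 apart at 59.7. Low counts hold a correlation down, so these values do not show how strongly the genes go together. These are correlations over cells that share a library and are given as a description.

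Inside the classical class the genes fell into different sub-clusters. Sub-cluster 7, led by Serpinb10 and Ccl6 and made of 391, 262 and 259 cells, had the highest level of 7 of the 10 genes at 4 months. Chil3 was at 1217 CPM there, Fn1 at 1013, Hp at 841, F13a1 at 746, Mgst1 at 543, Gda at 473 and Lyz2 at 35257 CPM. Summed neutrophil markers were also highest in this sub-cluster, at 253, 342 and 445 CPM, against 165, 288 and 278 CPM in sub-cluster 3 and 101 to 140 CPM in sub-clusters 2 and 6, and the neutrophil marker Mmp8 was among its 10 leading genes. Of the 7 neutrophil markers, Retnlg had no count in sub-cluster 7 at 4 months. Over the whole classical class Ly6g was at 2.2, 2.1 and 2.4 CPM. Csf3r was at 72.3, 75.0 and 76.1 CPM in that class and at 115, 102 and 88.8 CPM in nonclassical monocytes. The part of the neutrophil markers in the levels of sub-cluster 7 was not tested. Sub-cluster 3, led by the interferon-induced gene Rsad2 and by Fam129b and made of 647, 243 and 257 cells, had the highest level of the other three, with Slpi at 482 CPM, Thbs1 at 424 and Vcan at 293 CPM. Sub-clusters 2 and 6, both led by Tgm2, were lower for most of the set: F13a1 was at 107 and 64.6 CPM and Hp at 183 and 117 CPM at 4 months. Slpi went against the others in sub-cluster 7, where it was at 251 CPM, below its 338 CPM in sub-cluster 2. At 20 months Slpi was at 203, 483, 172 and 250 CPM in sub-clusters 2, 3, 6 and 7, so sub-cluster 3 was again the highest.

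The nonclassical monocyte-like cells held Lyz2 and Hp at 55.1% to 75.2% of the classical level and had few counts of some other genes. Lyz2 was at 11489, 10932 and 10553 CPM, and Hp at 303, 318 and 254 CPM. Gda was the single gene above the classical level, at 363, 394 and 363 CPM, or 143%, 162% and 140% of it. Fn1 was at 22.6, 32.9 and 8.07 CPM, from 11, 9 and 2 counts, and F13a1 at 16.4, 43.8 and 4.03 CPM, from 8, 12 and 1 counts. Fn1 in these cells was thus 1.49-fold (0.74 to 2.69), 3.08-fold (1.40 to 5.89) and 0.68-fold (0.08 to 2.48) the T-like level. Chil3, Fn1, F13a1 and Vcan were more than 2-fold below the classical level in all 3 libraries. In all, 6, 6 and 4 of the 10 were lower by that measure and none higher, beside 7.18%, 4.63% and 7.15% of all genes tested that were lower and 9.45%, 8.4% and 8.7% that were higher. The genes were chosen for leading the monocyte clusters, so nothing is read from these counts.

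With age, 9 of the 10 genes differed by less than 1.5-fold in classical monocytes, and Thbs1 and Slpi differed most, in opposite directions. Genes were compared at 50 CPM or more in either library, with 1.5-fold as the size that counts as a difference. At 12 against 4 months none of the 10 passed it, beside 1.8% of 3342 genes tested that were higher and 0.718% that were lower. At 20 against 4 months 1 of the 10, Thbs1, was higher, beside 1.11% of 3325 genes that were higher and 0.662% that were lower. The median log2 ratio of the 10 was -0.07 at 12 months and 0.05 at 20 months, against 0.02 and 0.00 over all genes tested. The 20-month and 12-month ratios share the 4-month library.

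Thbs1 in classical monocytes was at 284 CPM (276 to 292) at 4 months, 328 (317 to 339) at 12 and 482 (469 to 496) at 20. The 3 intervals did not overlap and the 20-month library was the highest. Against 4 months this is a log2 ratio of 0.21 (0.15 to 0.27) for the 12-month library. The 20-month library stood 0.77 (0.71 to 0.82) above 4 months, or 1.70-fold, and 0.56 (0.49 to 0.62) above 12 months. With each library clustered on its own the ratio at 20 months was 0.57, short of 1.5-fold. Thbs1 was higher at 20 than at 4 months in each of the 4 classical sub-clusters, by 0.35 in sub-cluster 2, 1.11 in sub-cluster 3, 0.84 in sub-cluster 6 and 0.83 in sub-cluster 7 on the log2 scale. At 12 months sub-cluster 2 went the other way, with 71.3 CPM against 124.6 at 4 months. With the makeup of the class held at that of 4 months the log2 ratio at 20 months was 0.90.

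The same gene was higher at 20 months in other monocyte and macrophage cells. In nonclassical monocytes Thbs1 was at 61.5, 43.8 and 242 CPM, from 30, 12 and 60 counts, a log2 ratio of 1.98 (1.32 to 2.66) at 20 against 4 months. In C1q macrophages it was at 31.9, 40.3 and 44.6 CPM, a log2 ratio of 0.49 (0.33 to 0.65) at 20 months, and these levels lie under the 50 CPM needed for a call. Within that class, sub-cluster 0, led by Cxcl2 and Il1b, was at 48.8, 67.3 and 124.5 CPM, a log2 ratio of 1.35. Sub-cluster 1, led by C1qb and C1qa, was at 22.5, 17.4 and 26.5 CPM with a ratio of 0.24 (-0.10 to 0.58), and sub-cluster 11 was lower at 20 months, -0.75 (-1.91 to 0.26). The unnamed sub-clusters 4 and 5, led by Cxcl11 and Cxcl9 and by Ly6i and Cxcl9, had ratios of 0.56 and 0.75. In T-like cells Thbs1 stood at 7.08, 7.63 and 9.10 CPM, so the background was higher at 20 months too, by 0.36 on the log2 scale. Platelets hold much thrombospondin-1, and the summed platelet markers in classical monocytes were at 0.9, 0.5 and 0.8 CPM. Of the 6 markers, Gp9 and Gp1bb were at 0 at 4 months, Gp1bb and Treml1 at 12 months, and Ppbp and Gp9 at 20 months. The platelet list leaves out Pf4, a C1q macrophage marker here, at 5.45, 5.41 and 8.97 CPM in classical monocytes. The part of platelet RNA in the Thbs1 levels was not tested.

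**Figure D3:**
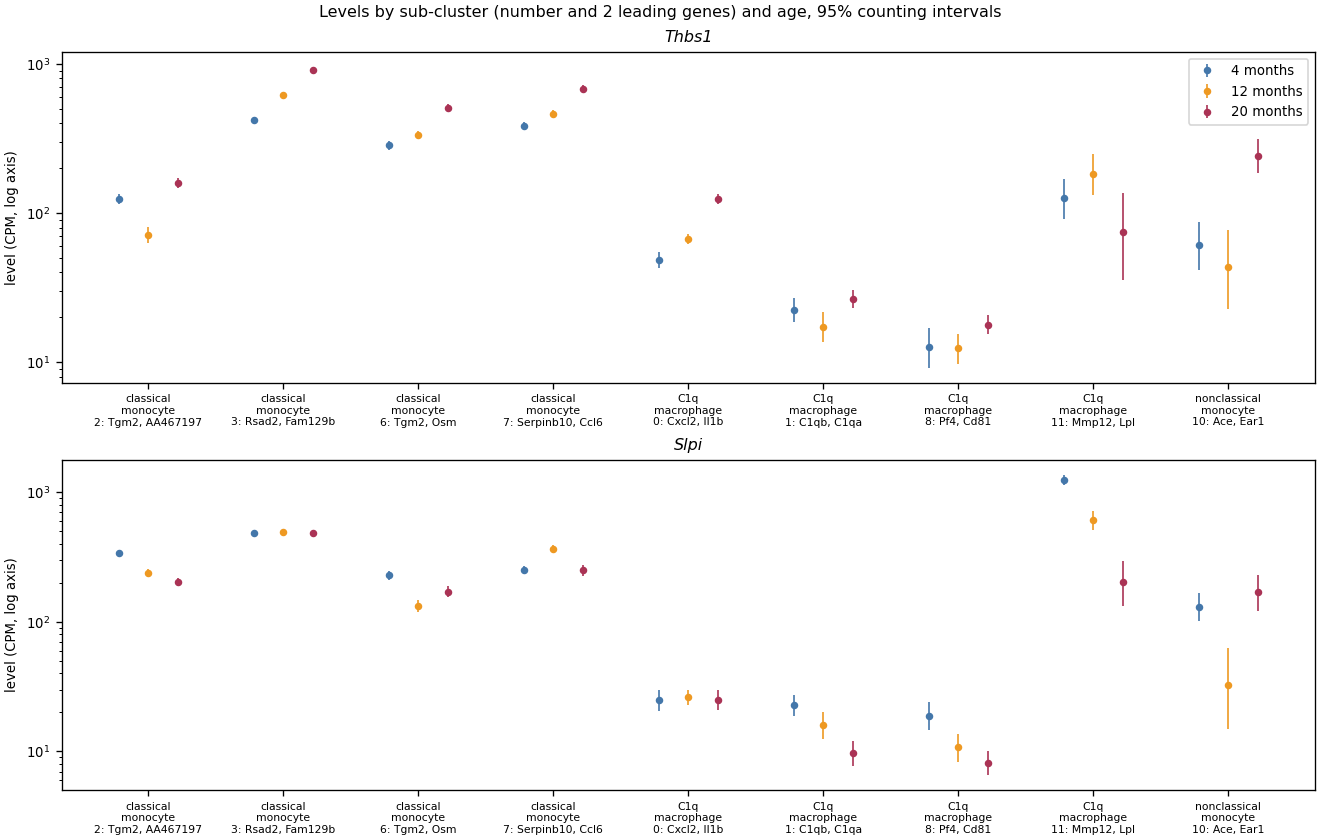
Thbs1 and Slpi in CPM by monocyte and macrophage sub-cluster at 4, 12 and 20 months, with bars for the 95% counting interval. Thbs1 at 20 months lies above 4 months in all 4 classical sub-clusters, while Slpi is lower at 20 months in the classical sub-clusters 2 (-0.74) and 6 (-0.41) and level in 3 (0.00) and 7 (-0.01).

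Slpi in classical monocytes was at 347 CPM (338 to 356) at 4 months, 283 (273 to 293) at 12 and 260 (250 to 270) at 20. The 4-month library was the highest and the intervals did not overlap. On the log2 scale the 12-month library lay at -0.29 (-0.36 to -0.23) from 4 months, and the 20-month library at -0.42 (-0.48 to -0.35), both short of 1.5-fold. By sub-cluster the 20-month ratio was -0.74 in sub-cluster 2 and -0.41 in sub-cluster 6, and 0.00 in sub-cluster 3 and -0.01 in sub-cluster 7, where the 12-month library was the highest at 368 CPM. Sub-cluster 3, where Slpi was highest, made up 28.0%, 18.9% and 18.4% of the class, and with the makeup of 4 months the ratio at 20 months was -0.27.

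Fn1 was at 488 CPM (478 to 499) and 496 (483 to 510) at 4 and 12 months, intervals that overlap, and at 593 (578 to 607) at 20 months. Its log2 ratio at 20 months, 0.28 (0.23 to 0.33), was above 0 in each classical sub-cluster: 0.69 in sub-cluster 2, 0.25 in 3, 0.73 in 6 and 0.17 in 7. Hp was at 403.5, 451 and 461 CPM, a log2 ratio of 0.16 at 12 months and 0.19 at 20, and it was higher at 20 months in sub-clusters 2, 3 and 6 by 0.72, 0.32 and 0.65 but not in sub-cluster 7, at -0.00. The Hp ratio at 20 months was -0.20 with each library clustered on its own and above 0 under the other 15 alternatives. The other six genes differed by at most 0.17 on the log2 scale at 20 months, and each of them had the opposite sign under at least 1 alternative. F13a1 was at -0.17 (-0.23 to -0.10), Lyz2 at -0.14, Mgst1 at -0.11, Vcan at 0.11 (0.03 to 0.20), Chil3 at 0.07 and Gda at 0.04 (-0.03 to 0.11).

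**Figure D4:**
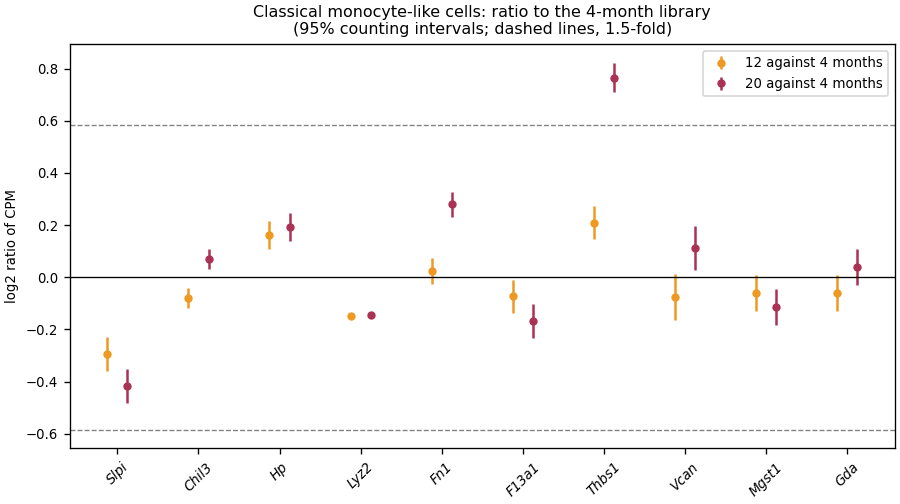
Log2 ratio of each gene's level in classical monocyte-like cells at 12 and at 20 months against 4 months, with 95% counting intervals and dashed lines at 1.5-fold. Thbs1 at 20 months (0.77) is the single point beyond a dashed line, and Slpi (-0.42) is the lowest.

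Markers of other cells moved with age inside the classical class as well. The summed C1q macrophage markers were at 1431, 1814 and 2288 CPM in classical monocytes, and in T-like cells, where they are background, at 506, 681 and 954 CPM. Summed neutrophil markers were at 147, 206 and 222 CPM in classical monocytes, with S100a8 at 13.3, 59.7 and 66.3 CPM and Ly6g near 2 CPM, and at 22.3, 55.2 and 29.6 CPM in T-like cells. Summed T-like markers were at 561, 885 and 743 CPM in classical monocytes. Other sums were lower at the older ages: NK-like markers were at 487, 402 and 253 CPM in classical monocytes and 1417, 1157 and 861 CPM in T-like cells, and erythroid markers at 67.0, 12.2 and 9.6 CPM and 66.6, 14.3 and 8.3 CPM. Their part in the age differences of Thbs1, Slpi, Fn1 and Hp was not tested.

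In C1q macrophages Slpi was the gene that differed most with age, and much of its count lay in few cells. It was at 51.7 CPM (48.0 to 55.6) at 4 months, 26.0 (23.8 to 28.3) at 12 and 13.5 (12.1 to 15.1) at 20, log2 ratios of -0.99 and -1.93. The T-like level of Slpi was 14.6, 14.8 and 11.2 CPM, so the 20-month level in the class was close to background. Only Slpi, Chil3 and Lyz2 reached 50 CPM, and Slpi was the 1 of these 3 past 1.5-fold, lower at each age. Of all genes tested, 0.614% of 3255 were lower at 12 months and 1.08% of 3251 at 20 months, with 1.94% and 1.14% higher. Slpi reached 50 CPM only at 4 months, where it was highest, so the filter admitted it through that library. Nothing is read from this count. Of the Slpi counts of the class, 10 cells held 58.1%, 38.5% and 28.1%. Sub-cluster 11, led by Mmp12 and Lpl and made of 32, 16 and 13 cells, had Slpi at 1248, 611 and 202 CPM. Without it Slpi in the class was at 22.6, 19.0 and 12.5 CPM, a log2 ratio of -0.86 (-1.09 to -0.62) at 20 months, and below the 50 CPM needed for a call. At 20 months Slpi was past 1.5-fold lower under all 12 alternatives, and the call was lost under 7 of them because the levels fell under 50 CPM. At 12 months it was past 1.5-fold lower under 5 of the 12. Sub-cluster 0 was at 24.9, 26.2 and 25.1 CPM and sub-cluster 1 at 22.9, 16.0 and 9.74 CPM, while sub-cluster 8, led by Pf4 and Cd81, was at 18.8, 10.8 and 8.2 CPM, next to a T-like level of 14.6, 14.8 and 11.2 CPM. The makeup of the class differed between the libraries: sub-cluster 0 was 36.3%, 46.0% and 23.3% of it, sub-cluster 1 37.5%, 24.2% and 34.6%, sub-cluster 8 24.2%, 28.9% and 41.5%, and sub-cluster 11 2.12%, 0.90% and 0.55%. The part of this makeup in the class's ratio was not tested. Lyz2 in C1q macrophages was higher by 0.24 and 0.28 on the log2 scale, opposite to its ratios of -0.15 and -0.14 in classical monocytes, and Chil3 was at -0.27 and -0.09.

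In nonclassical monocytes 7 of the 10 genes reached 50 CPM. At 12 against 4 months Mgst1 was higher, at 212 against 135 CPM, and Slpi lower, at 32.9 against 131 CPM, while 11.6% and 8.63% of 3880 genes tested were higher and lower. Of this pair of libraries, Slpi reached 50 CPM only at 4 months, so the filter admitted it through its higher value. As a percent of the classical level, Slpi in nonclassical monocytes was at 37.8%, 11.6% (5.31% to 22.1%) and 65.2%. By this measure the 12-month library was the lowest and the 20-month library the highest. At 20 months Thbs1 was higher, beside 11.6% of 3841 genes that were higher and 11.5% that were lower. With 87, 40 and 38 cells these shares are large, and 1 gene of 7 in a direction is near them. The class was not found under 3 of the alternatives.

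Over all retained cells most of the genes were lower by 1.5-fold or more at 12 months, and 3 were at 20 months. Classical monocyte-like cells were 17.1%, 9.31% and 10.1% of retained cells, and they held most counts of each gene: 84.4%, 77.7% and 80.1% of F13a1, 83.0%, 76.2% and 75.8% of Vcan, 72.9%, 58.1% and 66.4% of Slpi, and 71.6%, 52.9% and 50.4% of Lyz2. Over all cells 7 of the 9 genes tested were 1.5-fold or more lower at 12 months, where 1.88% of 3245 genes were, and 3 of 9 (Slpi, F13a1 and Mgst1) were lower at 20 months, where 1.49% of 3228 genes were. The higher directions held 1.6% and 1.77% of genes and none of the 10. In levels summed over all cells, as in a bulk sample, fewer monocytes and less RNA per monocyte cannot be told apart.

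Genes related to the 10 by function were described from 7 lists, which were drawn up with earlier results of these data known. Of 14 granule and antimicrobial genes, 3 reached 50 CPM in classical monocytes and S100a8, a calprotectin subunit, was higher at 20 months by 2.32 on the log2 scale. At 13.3, 59.7 and 66.3 CPM, S100a8 was admitted by the filter only through the older libraries, where it was high. Nothing is read from its being called. Of 12 matrix and matricellular genes, 5 were tested and 1 was lower: Spp1, or osteopontin, was at 197, 155 and 97.0 CPM, a ratio of -1.02, next to a T-like level of 188, 208 and 98 CPM that was lower at 20 months too. Tgfbi, a matrix protein induced by TGF-beta, was at 1558, 1661 and 1796 CPM, a ratio of 0.21. Of 13 coagulation and fibrinolysis genes, 4 were tested and 1 was lower: Plaur, the urokinase receptor, at 486, 371 and 321 CPM, a ratio of -0.60. F10, coagulation factor X, was at 49.0, 55.6 and 70.5 CPM, a ratio of 0.52 that stayed short of the 1.5-fold size.

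In no list did more than 1 gene pass 1.5-fold in classical monocytes. Among 11 receptors of the 10 gene products 8 were tested and none passed, with Itga5, the alpha chain of the fibronectin receptor, at 145, 126 and 101 CPM and a ratio of -0.51, and Tlr2 at 0.32. Among 14 protease inhibitors and targets 4 were tested and none passed, with Serpina3g at -0.27 and Cst3, cystatin C, at 0.09. Lyz1, the close copy of Lyz2, was the 1 of 5 chitinase-like and lysozyme relatives tested, at 129, 111 and 115 CPM and a ratio of -0.17. Among 14 glutathione, MAPEG and purine genes 10 were tested and none passed, with Gstm1 at -0.40 and Xdh, the xanthine dehydrogenase that acts after guanine deaminase, at -0.34. The medians of the lists at 20 months ran from -0.30 for coagulation (4 genes tested) to 0.27 for granule genes (3 genes tested), against 0.00 for all genes tested. At 12 months S100a8, again admitted by the filter through the older library, was the single gene of the 7 lists to pass in classical monocytes. None was lower there. In C1q macrophages Ecm1, an extracellular matrix protein, was lower at 12 months (126, 80.3 and 89.7 CPM, a ratio of -0.65), and at 20 months Spp1 (224, 307 and 112 CPM) and Plaur (184, 174 and 113 CPM, a ratio of -0.70) were lower. The T-like level of Spp1 given above was near the C1q level at 4 and 20 months, and it was lower at 20 months too. None of the list genes was higher in C1q macrophages.

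Levels were compared over 20 points, each a cell class in a library with 50 or more cells, among 6643 genes. With the other members left out of the ranking, the genes whose levels went most like 3 of the members were named. For Slpi they were Cd44 (r = 0.95), Klf13 (0.92) and Tut7 (0.92). For Chil3 they were Lyz1 (0.99), Clec4d (0.98) and C3 (0.97), and for Fn1 they were Dync1i2 (0.96), Ifi203-ps (0.94) and Smox (0.93). The points share libraries, depth and free RNA, so these values describe the likeness and have no test.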

How the data were processed

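Single-cell RNA from CD45+ cells of 3 melanoma libraries, 1 per age, was read from deposited matrices of raw counts per gene and cell. Per the labels' protocols the libraries were made with the PIP-seq 3′ kit of Fluent BioSciences. Per the submitters' processing notes reads were aligned with STAR 2.7.10a to GRCm38. The counter and cell filter are not given in the sources used here. Of 55401 gene IDs, 98.1% matched GENCODE M21.

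Cells with under 500 counts or over 15% mitochondrial counts were left out (2 in all), and so was the 6% of each library with the highest Scrublet score. Cells were clustered (scanpy 1.11.5 with Python 3.11.15, igraph 0.11.9, 2000 variable genes, 30 components, 15 neighbours, Leiden resolution 1.0) without the 10 genes and named from marker lists, with a score of at least 0.4 from 3 or more markers. The monocyte and macrophage cells were clustered again at resolution 1.0. A resolution of 0.5 was planned for this step, and it was changed after seeing that nonclassical monocytes did not separate at 0.5. The margin of 0.15 between the best score and the next was also set after seeing the clusters.

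Counts were summed per class and library and expressed as CPM. Intervals are exact (Poisson for levels, conditional binomial for ratios, Clopper-Pearson for shares, scipy 1.17.1), cover counting error only, and treat counts as independent molecules. With 1 library per age there is no test. Ratios were tested on simulated counts. The total count per library was 110371225, 127850782 and 119873564. R 4.3.3 with edgeR 4.0.16 gave TMM factors for an alternative scaling. Doublets kept, other clusterings, other scalings, deeper cells, background subtracted, equal weight per cell and no filter on level were tried as alternatives. The members and lists were chosen with earlier results of these data known. Named were all 10 members and up to 4 genes per list with the largest log2 ratio at 20 against 4 months. The 3 genes outside the 10 that were most like each of Slpi, Chil3 and Fn1 were also named.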

Additional observations from a re-analysis of the deposited data

How the results depend on the processing

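In classical monocytes the 20-month ratio of Thbs1 was above 0 under all 16 alternatives (0.57 to 0.90) and past 1.5-fold in 15, the exception being each library clustered on its own. That of Slpi was below 0 in all 16 (-0.60 to -0.24), and that of Fn1 above 0 in all 16 (0.00 to 0.39). The number of genes past 1.5-fold at 20 months was 2 with doublets kept (Thbs1 higher, Slpi lower) and 2 with libraries clustered separately (Slpi and F13a1 lower), and at 12 months it was 3 with libraries clustered separately (F13a1, Mgst1 and Gda lower). The share of all genes past 1.5-fold was not computed under the alternatives. The counts in this and the following paragraphs therefore show only how the calls moved, and nothing more is read from them.

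In C1q macrophages the count at 12 months was 0 in place of 1 with doublets kept, with the 10 genes kept in the clustering, with libraries clustered separately, with cells of at least 5000 counts, at resolution 0.5, and without sub-cluster 11 or the 10 highest cells, and 2 without the filter on level (Slpi and Vcan). At 20 months it was 0 with doublets kept, resolution 2.0, libraries clustered separately, cells of at least 5000 counts, resolution 0.5, and without sub-cluster 11 or the 10 highest cells. These counts do not say which gene was called. At resolution 2.0 the 4-month and 20-month levels of Slpi were under 50 CPM, so a 12-month call there is not of Slpi. The Slpi ratio in C1q macrophages was below 0 in all 12 alternatives at 20 months (-4.01 to -0.69). At 12 months it was reversed, at 0.39, with libraries clustered separately. The cause was not tested.

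In nonclassical monocytes the count at 12 months was 1 with doublets kept and 1 with the 10 genes kept in the clustering, in place of 2. At 20 months it was 4 with doublets kept, 2 with the 10 genes kept and 4 without the filter, in place of 1. In the main setting 11.6% and 11.5% of all genes tested were already higher and lower at 20 months in this class. Under the alternatives these shares were not computed, so nothing is read from the counts. No nonclassical class was found at resolution 0.5, with cells of at least 5000 counts, or at 12 and 20 months with libraries clustered separately. The median lymphocyte level was 2.58% of the classical one in T-like cells, 2.60% in NK-like cells and 3.11% with doublets kept. Resolution 0.5, sub-clusters left out, the makeup held at 4 months and the 10 highest cells left out were chosen after seeing the data. No paired analysis was possible because each age has 1 library. The depth of rare cells limits the precision: Fn1 at 20 months in nonclassical monocytes rests on 2 counts.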

Other observations

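Slpi was also present outside the monocytes. In plasmacytoid dendritic cell-like cells, the main makers of type I interferon, it was at 283, 215 and 247 CPM in 62, 58 and 52 cells, next to 347, 283 and 260 CPM in classical monocytes. In the 24, 26 and 22 B-like cells it was at 61.5, 316 and 37.1 CPM. In dendritic cell-like cells Slpi was 1.09-fold, 0.89-fold and 0.98-fold the T-like level.

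The matrix genes Fn1 and Vcan were present in the 50, 31 and 46 fibroblast-like cells, which a sort for CD45 should remove. Fn1 was at 233, 201 and 253 CPM and Vcan at 66.1, 55.9 and 67.4 CPM there, both below the classical monocyte level. Thbs1, which fibroblasts are known to make, was at 39.3, 19.6 and 10.9 CPM in them. In dendritic cell-like cells F13a1 was at 28.9, 30.9 and 16.4 CPM, or 3.29-fold, 5.51-fold and 3.20-fold the T-like level, and Fn1 at 35.5, 39.9 and 28.0 CPM, or 2.35-fold, 3.74-fold and 2.37-fold.

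A group of 9, 8 and 5 cells led by S100a8 and S100a9, calprotectin genes abundant in neutrophils, held Slpi at 1141, 914 and 189 CPM and Chil3 at 57.0, 1773 and 5269 CPM, while F13a1 and Vcan had no count in any of these cells. Thbs1 was at 1122, 360 and 56.7 CPM in them. The group was too small for more than these values.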
